A study of Mus musculus with 40 samples.

Results

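In all, 10 genes of transforming growth factor-β (TGFβ) signalling were followed in CD11b+ myeloid cells sorted from mouse brain, with and without a glioma. They were chosen by name, with earlier results of these data known. The reason for the choice was that integrins, the receptors that the tested peptide was designed to block, release TGFβ from its latent form. The genes were Tgfb1 and Tgfb2 (ligands), Nrros (a carrier of latent TGFβ), Tgfbr1 and Tgfbr2 (receptors), Smad2 and Smad3 (signal transducers), and Smad7, Ski and Skil (inhibitors), 10 of the 54513 rows of each deposited table. The 9 genes other than Tgfb2 reached the mean of at least 1 RPKM (reads normalized to gene length and sequencing depth) needed to enter the tests.

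The cells came from 3 experiments, each with its own table, and the tables were normalized separately, so no test was made across them. In the first, C57BL/6 mice of 10 to 12 weeks received GL261 mouse glioma cells (carrying tdTomato and luciferase) into the right striatum and an osmotic pump that delivered water (vehicle), 7aaRGD or 7aaRAE into the tumor at 2 mg/ml. The peptide 7aaRGD holds the RGD motif that integrins bind, and 7aaRAE is the control peptide without it. Cells were taken at 21 days post-implantation (DPI), 3 samples for each group and 2 animals pooled in each sample, and 3 samples of naive mice, which had no tumor. In another, GL261 tumors were sampled at 28 DPI, 1 animal per sample, from vehicle (n = 4), 7aaRGD (n = 4), anti-PD-1 antibody (n = 3) and 7aaRGD + anti-PD-1 (n = 3) groups. The antibody, which blocks an inhibitory receptor of T cells, was injected every other day from day 8 to day 14 (10 mg/kg), and control groups received IgG. In the remaining experiment, athymic nude mice, which lack mature T cells, carried U87-MG, an established human glioma line, with vehicle, 7aaRGD or 7aaRAE for 21 days (n = 3 each, pools of 2 animals). The labels of the 28 DPI samples name nude mice, while the study's methods describe C57BL/6 hosts for GL261 cells. The study also reports the anti-PD-1 experiment as done in immunocompetent mice, and says that immunodeficient mice did not allow a test of the combination.

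TGFβ is made as an inactive complex in which its own propeptide holds the growth factor. The complex is tethered to the cell surface or matrix by carrier proteins, of which NRROS (also called LRRC33) serves microglia and other myeloid cells, and αv integrins open it. Active TGFβ brings together a type II and a type I receptor, which phosphorylate SMAD2 and SMAD3; these enter the nucleus with SMAD4. SMAD7 blocks the type I receptor, and SKI and SKIL (SnoN) repress SMAD target genes. Microglia depend on this pathway for the expression of much of their identity program.

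The sort label held in all 35 samples: the summed level of 5 genes that mark myeloid cells (Itgam, Ptprc, Csf1r, Aif1, Tyrobp) was between 2131 and 4589 RPKM. Markers of B cells (summed 2.36 to 19.2 RPKM), endothelium and pericytes (1.10 to 18.6), astrocytes (7.08 to 22.7), the oligodendrocyte lineage (13.9 to 28.8) and neurons (0.451 to 9.87) were low in every sample, and those of neutrophils summed to between 120.4 and 520.0 RPKM. Genes of NK and T cells were higher in some samples given anti-PD-1, and their sums at 28 DPI are given below. Replicate differences in both GL261 experiments spanned 7 of 8 possible dimensions at 21 DPI and 9 of 10 at 28 DPI, as values do after 1 term has been removed from them (6 of 6 for U87-MG), so adjusted p-values there may be too small and each test was repeated with 1 residual degree of freedom fewer. The tables hold no counts, so the depth of each library is unknown. Because RNA was measured in bulk, fewer cells of a type and less RNA per cell cannot be told apart in any result below.

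The bases before the start of 5 members are shown first, since these genes moved unequally: the receptors and Smad3 were far lower in tumor-bearing than in naive brain, while Tgfb1 and Nrros held nearly their level. A window of 250 bases before the annotated start was found for 7 of the 10 members in RefSeq (GRCm38.p6, the patch release of mm10). It lies at chr7:25686752-25687001 (plus strand) for Tgfb1, chr16:32165595-32165844 (minus) for Nrros, chr4:47352972-47353221 (plus) for Tgfbr1, chr9:116175364-116175613 (minus) for Tgfbr2 and chr9:63757995-63758244 (minus) for Smad3, in each case just outside the gene. Capitals mark, on either strand, the core of the PU.1 site (GAGGAA), the SMAD-binding element (CAGAC) and the GC box (GGGCGG), which do not overlap one another in these windows.
Tgfb1: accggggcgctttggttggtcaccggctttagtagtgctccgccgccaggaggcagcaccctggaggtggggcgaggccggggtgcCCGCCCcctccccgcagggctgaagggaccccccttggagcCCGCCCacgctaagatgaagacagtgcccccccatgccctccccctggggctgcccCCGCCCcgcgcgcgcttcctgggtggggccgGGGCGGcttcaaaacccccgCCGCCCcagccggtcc
Nrros: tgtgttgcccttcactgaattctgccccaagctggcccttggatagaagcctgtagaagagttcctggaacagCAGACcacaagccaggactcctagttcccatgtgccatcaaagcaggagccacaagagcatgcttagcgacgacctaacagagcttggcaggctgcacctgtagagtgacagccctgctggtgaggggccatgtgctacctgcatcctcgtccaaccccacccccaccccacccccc
Tgfbr1: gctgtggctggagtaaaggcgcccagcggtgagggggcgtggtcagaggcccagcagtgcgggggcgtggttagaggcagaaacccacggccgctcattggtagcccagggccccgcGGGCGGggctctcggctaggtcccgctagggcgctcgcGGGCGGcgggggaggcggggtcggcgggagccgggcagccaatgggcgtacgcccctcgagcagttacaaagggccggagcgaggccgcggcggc
Tgfbr2: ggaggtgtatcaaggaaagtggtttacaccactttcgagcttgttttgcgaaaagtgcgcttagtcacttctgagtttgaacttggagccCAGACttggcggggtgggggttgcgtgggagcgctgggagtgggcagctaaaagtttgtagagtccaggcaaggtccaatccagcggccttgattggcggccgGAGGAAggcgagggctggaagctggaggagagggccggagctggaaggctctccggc
Smad3: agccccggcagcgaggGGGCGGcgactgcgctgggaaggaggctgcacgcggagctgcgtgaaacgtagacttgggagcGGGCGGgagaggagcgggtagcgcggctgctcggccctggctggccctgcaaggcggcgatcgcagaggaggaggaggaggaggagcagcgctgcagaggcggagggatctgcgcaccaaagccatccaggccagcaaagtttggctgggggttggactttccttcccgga
The Tgfb1 window held 5 GC boxes, and those of Tgfbr1 and Smad3 held 2 each, with a GC content of 75.2%, 74.8% and 69.2%. The Nrros and Tgfbr2 windows, each 58.4% GC, had no GC box and 1 SMAD-binding element each, and Tgfbr2 had the single PU.1 core among the 5. Of all 32841 windows of this length, 23.3% held the PU.1 core, 42.2% the SMAD-binding element and 32.7% the GC box, so these letters are common and a match is no evidence of binding. Among the genes that fell several-fold, Tgfbr1 and Smad3 had GC boxes alone, as Tgfb1 did, and Tgfbr2 had no GC box. Any link between these letters and the change in level was not tested.

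In naive brain Tgfbr1, the type I receptor, was the highest member at 376 ± 4.64 RPKM (mean ± SD, n = 3), above 99.7% of protein-coding genes. It was followed by Tgfbr2 (161.5 ± 6.35 RPKM) and Tgfb1 (153 ± 4.18 RPKM), whose samples overlapped. Ski (138 ± 8.01 RPKM), Nrros (74.0 ± 2.39), Smad3 (48.2 ± 2.96), Skil (29.9 ± 0.754), Smad7 (24.7 ± 1.85), Smad2 (9.04 ± 0.358) and Tgfb2 (0.120 ± 0.124) came next, each separated from its neighbors. RPKM are per length, so these levels can be set against each other.

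The order differed in GL261 tumors. At 21 DPI with vehicle, Tgfb1 led at 133 ± 9.48 RPKM, and Nrros (84.3 ± 7.42), Tgfbr1 (70.9 ± 11.2) and Ski (65.6 ± 3.65) followed with overlapping neighbors. At 28 DPI the samples of Tgfb1 (90.3 ± 4.87 RPKM, n = 4), Ski (85.5 ± 7.12) and Tgfbr1 (79.9 ± 13.5) overlapped one another in turn, and Smad7 (8.76 ± 1.37), Smad3 (6.54 ± 1.15) and Smad2 (5.26 ± 0.364) did likewise at the lower end. In U87-MG tumors with vehicle the first 3 members kept the order of the naive brain, Tgfbr1 at 157 ± 10.8 RPKM, Tgfbr2 at 125 ± 5.0 RPKM and Tgfb1 at 103 ± 2.55 RPKM, with Ski (101 ± 8.43 RPKM) overlapping Tgfb1. Smad3 there stood at 34.7 ± 2.76 RPKM, above Skil and Smad7.

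**Figure D1:**
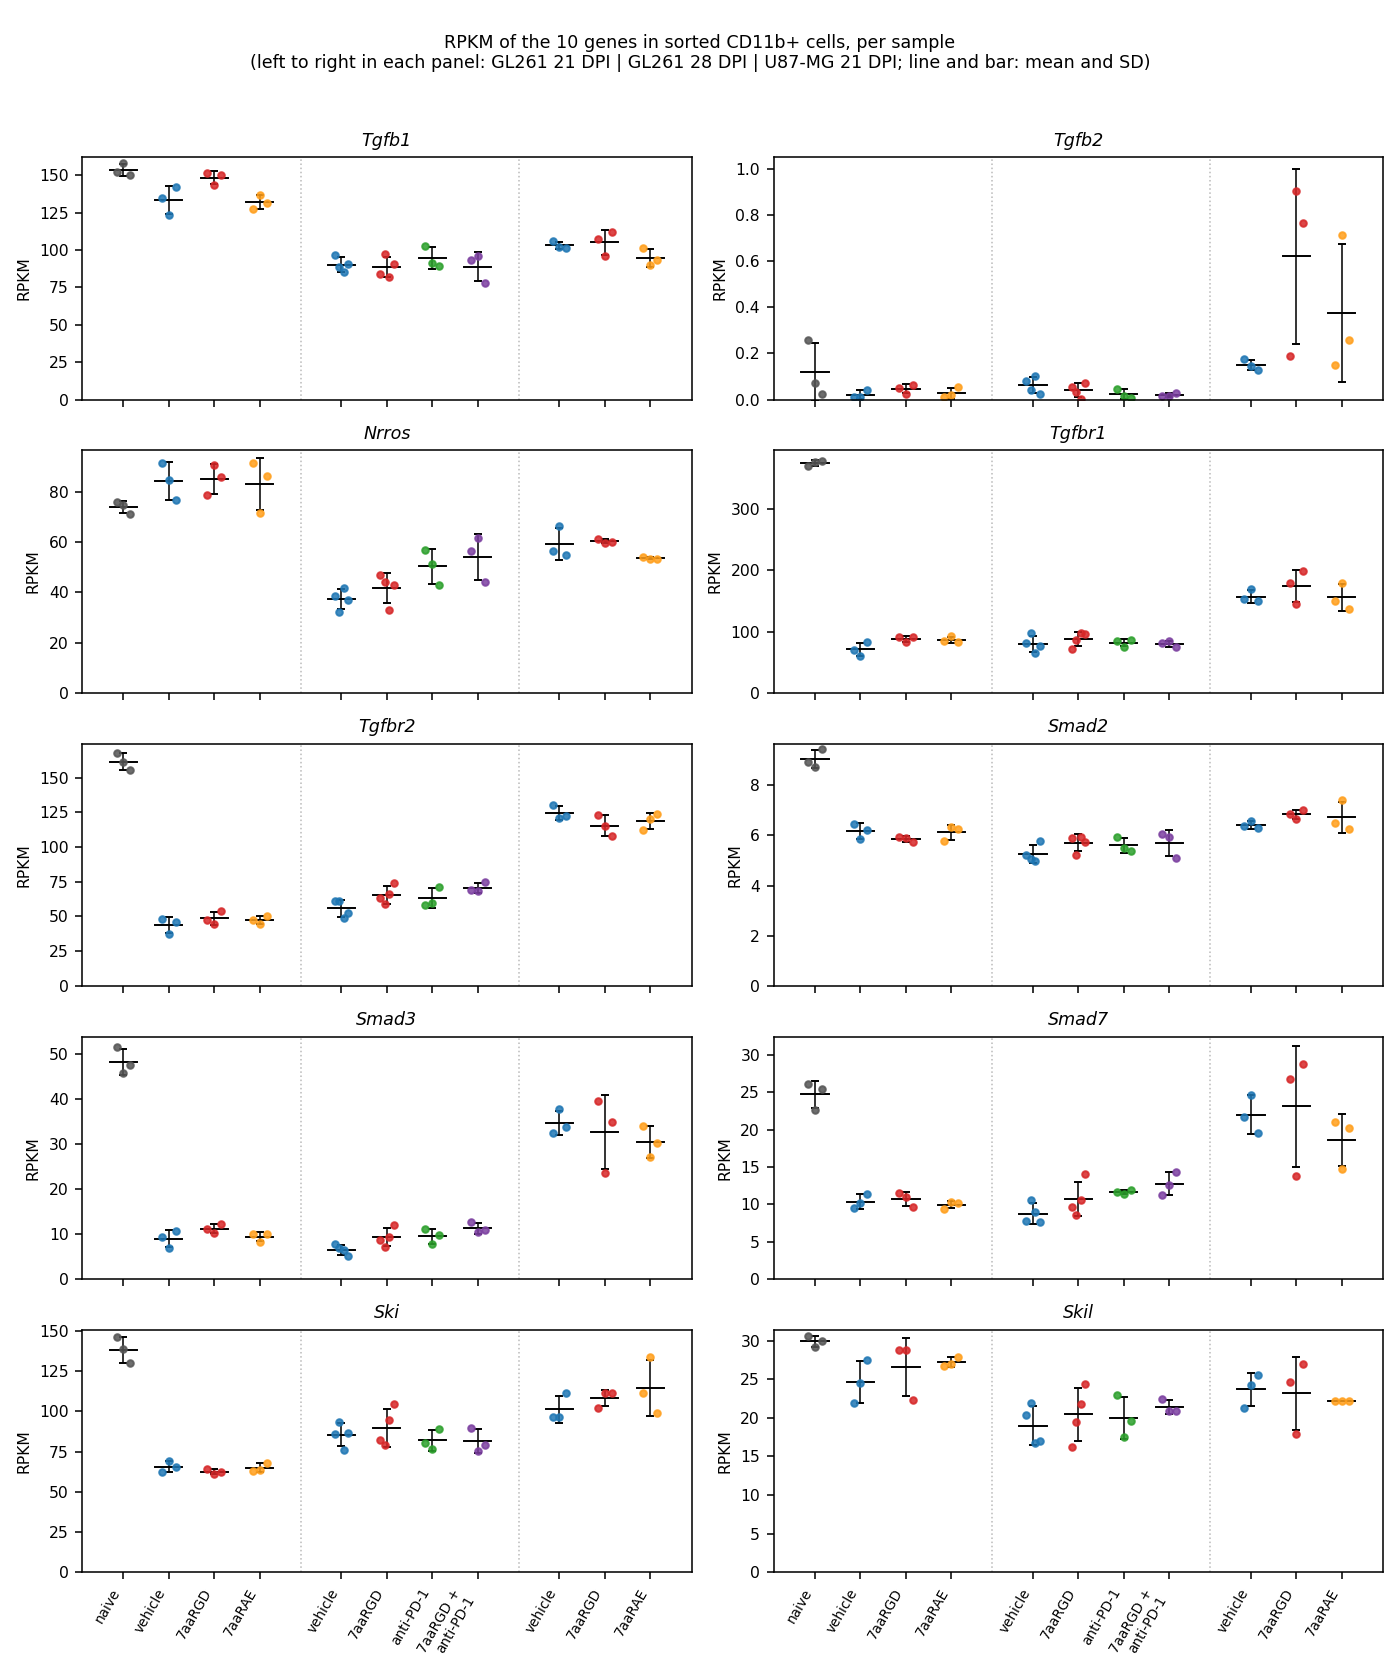
Level of each of the 10 genes (RPKM, linear axes from 0, own scale per panel) in every sample of the 11 groups, with points for samples and bars for the mean and SD; the parts of SD bars below 0 are not drawn. Tgfbr1, Tgfbr2 and Smad3 are highest in naive brain, next in U87-MG tumors and lowest in GL261 tumors, while Tgfb1 stays between 77.9 and 158 RPKM and Tgfb2 below 1 RPKM throughout; the 3 tables were normalized separately.

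The comparison of vehicle-treated GL261 tumors with naive brain gave the pathway's transcripts in the sorted cells with and without a tumor. Both receptors and Smad3 fell several-fold, Smad7 and Ski fell less, Smad2, Skil and Tgfb1 fell slightly, and Nrros rose slightly. All 9 tested members were called at an adjusted p under 0.05 (limma), 8 lower and 1 higher, and each of the 9 separated the naive samples from the tumor samples. That count reads against a background in which 82.8% of 9731 genes were called (48.2% lower) and 85.4% were separated (49.8% lower, 35.6% higher), with 34.6% called higher, so being called does not set the members apart. The median log2 fold change was -1.06 over the 9 members and -0.14 over all genes.

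Tgfbr1 was at 370.5, 377 and 379.6 RPKM in the naive samples and at 70.5, 59.9 and 82.3 RPKM with a tumor. The tumor samples all lay far under the naive ones, a log2 fold change of -2.40 ± 0.106 (SE; limma, adjusted p = 2.41e-07) or 0.189 of the naive mean. Tgfbr2, the ligand-binding type II receptor, went from 168, 161 and 155 RPKM to 48.1, 37.3 and 45.9 RPKM. Again no sample came near the other group (log2 fold change -1.87 ± 0.0947, adjusted p = 4.98e-07 in limma).

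The receptor SMADs moved unequally. Smad3 was at 51.5, 45.8 and 47.5 RPKM in naive samples and at 9.44, 6.86 and 10.6 RPKM with a tumor. This log2 fold change of -2.32 ± 0.134 (limma, adjusted p = 1.03e-06) was close in size to that of Tgfbr1. Smad2, its partner, was lower throughout, at 8.93, 8.74 and 9.43 RPKM against 6.47, 5.86 and 6.21 RPKM. Its groups were also separate, but its log2 fold change was only -0.48 ± 0.0585 (limma, adjusted p = 8.95e-05).

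Among the inhibitors, Smad7, itself induced by TGFβ, was at 26.1, 22.6 and 25.4 RPKM in naive samples and 9.5, 10.2 and 11.4 RPKM with a tumor, a log2 fold change of -1.18 ± 0.0813 (limma, adjusted p = 2.87e-06). Ski, the corepressor, was at 146, 139 and 130.0 RPKM against 62.0, 69.3 and 65.5 RPKM. Every tumor sample of both genes was below every naive sample, and Ski fell by 1.06 ± 0.0666 on the log2 scale (limma, adjusted p = 1.62e-06). Skil, the related corepressor, was at 30.6, 29.1 and 29.9 RPKM against 22.0, 24.5 and 27.5 RPKM. Its groups were separated by a narrow gap (log2 fold change -0.27 ± 0.0799, adjusted p = 0.0126 in limma).

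The ligand and its carrier moved least. Tgfb1 was at 152, 158 and 149.8 RPKM in naive samples and 134, 123 and 142 RPKM with a tumor, a log2 fold change of -0.20 ± 0.0659 (limma, adjusted p = 0.0201). Nrros was at 75.9, 74.8 and 71.3 RPKM against 91.4, 84.8 and 76.6 RPKM, with the lowest tumor sample just over the highest naive one (log2 fold change 0.18 ± 0.0725, adjusted p = 0.0457 in limma). Tgfb2, at 0.260, 0.0727 and 0.0264 RPKM in naive samples and 0.0124, 0.00974 and 0.0430 RPKM with a tumor, was near 0 in both groups and was not tested.

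Median-of-ratios scaling moved the median of all genes by 0.15 on the log2 scale, and the small changes depended on it: Skil (-0.10, adjusted p = 0.277) and Tgfb1 (-0.03, adjusted p = 0.705) were then no longer called in limma, while Nrros was at 0.35 (adjusted p = 0.0025) and Tgfbr1, Smad3 and Tgfbr2 at -2.23, -2.16 and -1.70. The Nrros call was also lost without any 1 of 5 of the 6 samples (limma, adjusted p from 0.0721 to 0.139), and that of Tgfb1 without naive replicate 2 (adjusted p = 0.0777).

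Markers of cell types moved with these genes, and their part in the result was not tested. The summed level of 10 microglial markers (such as P2ry12, Tmem119 and Sall1) was 17443 to 18040 RPKM in naive samples and 1438 to 2107 RPKM with a tumor, and 10 of 10 fell. The 10 markers of monocytes and macrophages (such as Ccr2, Ly6c2 and Arg1) went from 420.3 to 469 RPKM in naive samples, where Arg1 was under 0.1 RPKM, to between 6507 and 7494 RPKM, and 9 of 10 rose. Neutrophil markers summed to 402 to 502 RPKM in naive samples and 132 to 263 RPKM with a tumor, and of 6 tested 1 rose and 4 fell. Several of the microglial markers are themselves known to need TGFβ signalling, so this list is not independent of the pathway.

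**Figure D2:**
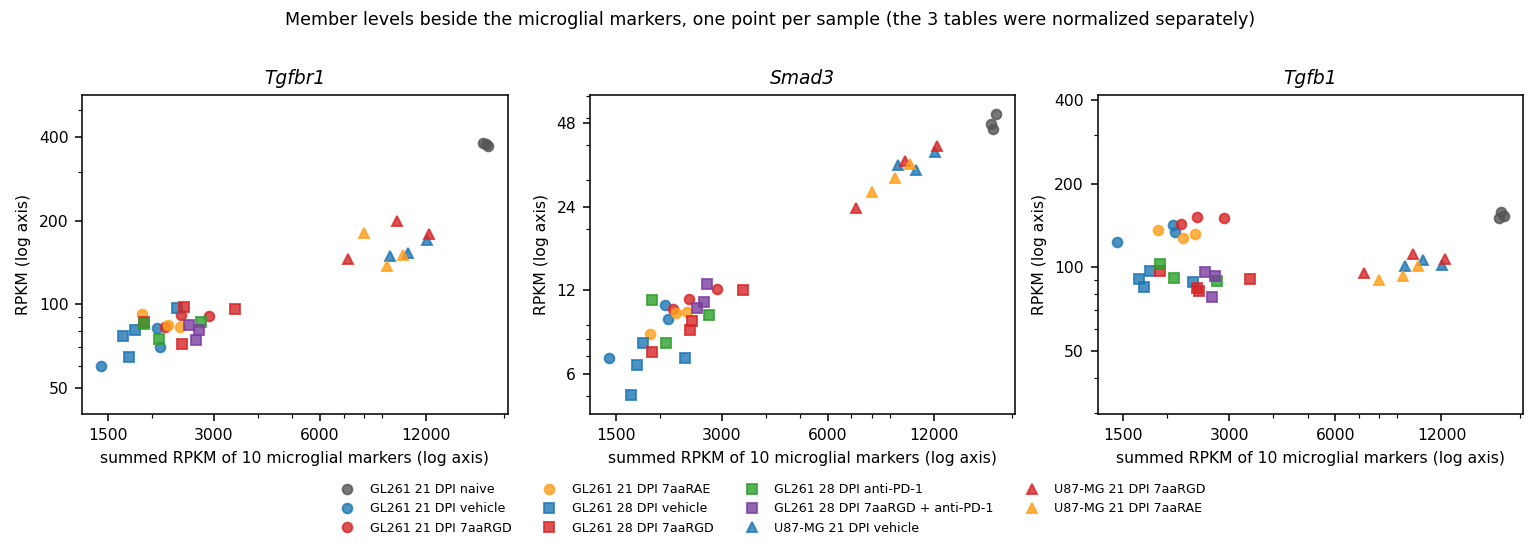
Level of Tgfbr1, Smad3 and Tgfb1 (RPKM, log axis) against the summed level of 10 microglial markers (RPKM, log axis), 1 point per sample. Naive samples lie at marker sums of 17443 RPKM and above with Tgfbr1 of 370.5 RPKM or more, U87-MG samples from 7215 to 12244 RPKM with Tgfbr1 from 137 to 199 RPKM, and GL261 tumor samples at 3442 RPKM or less with Tgfbr1 at 97.8 RPKM or less, whereas Tgfb1 spans a narrow range; the tables were normalized separately.

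Other genes of the pathway, 51 in 4 lists, moved in both directions between vehicle and naive: of 39 tested, 19 rose and 16 fell (limma, adjusted p under 0.05). With 82.8% of all genes called, a count of this size is near the background and says nothing particular about the pathway. Of 7 genes of latency and activation, 3 rose and 4 fell. Thbs1 (thrombospondin-1, which can activate latent TGFβ) rose by 4.55 and Mmp14 (a membrane protease) by 3.78 on the log2 scale, while the integrin subunits Itgb3 and Itgb5 fell by 2.84 and 2.17. Itgav, the αv subunit, fell from 32.8 ± 0.544 to 11.9 ± 0.949 RPKM. Itgb8, which forms the αvβ8 integrin, was at 0.0887 RPKM or less in every group mean, Lrrc32, the carrier of latent TGFβ on regulatory T cells and platelets, at 0.161 RPKM or less, and Tgfb3 between 0.00931 and 1.19 RPKM.

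Of 7 receptors and coreceptors, 2 rose and 4 fell. The coreceptor Eng (endoglin) and the type I receptors Acvr1 and Bmpr1a fell, with log2 fold changes of -2.10, -1.98 and -1.83, as did the type II receptor Bmpr2 (-1.35). Of 15 SMADs and regulators, 4 rose and 8 fell: Pmepa1, an inhibitor induced by TGFβ, fell by 2.15, the corepressor Tgif2 by 2.10 and Smad5 by 1.53, whereas Tgif1 rose by 1.54. Smad4, the common partner, was at 18.2 ± 1.85 and 16.7 ± 1.12 RPKM and was not called (limma, adjusted p = 0.243).

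In the list of target genes 10 of 10 tested rose, beside 34.6% of all genes called higher. The list does not hold every gene induced by TGFβ: Smad7 and Pmepa1, kept in other lists, fell, as did the microglial markers. Tgfbi, a secreted matrix protein, went from 35.3 ± 1.80 to 1805 ± 162 RPKM (log2 fold change 5.63 ± 0.0800, limma adjusted p = 3.26e-09). Fn1 (fibronectin) rose by 5.44, Cdkn1a (a cell cycle inhibitor) by 4.21 and Tgm2 (transglutaminase 2) by 3.74 on the log2 scale. Many of these genes are also regulated outside the pathway, and the monocyte and macrophage markers rose in the same samples. What part TGFβ, other regulation or the mix of cells had in these rises was not tested.

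At 21 DPI the peptides were compared with vehicle and with each other, to ask whether blocking integrins changed the pathway's transcripts. With 7aaRGD, 0 of 9 members passed the adjusted p of 0.05 in limma, beside 0.148% of 9444 genes. At an unadjusted p under 0.05 there were 3 of the 9 members and 1280 genes. Of these, Tgfbr1 was at 91.4, 83.0 and 90.9 RPKM with 7aaRGD against 70.5, 59.9 and 82.3 RPKM with vehicle. The groups were just separate (log2 fold change 0.32 ± 0.107, adjusted p = 0.263 in limma). Tgfb1, at 151, 144 and 150.0 RPKM against 134, 123 and 142 RPKM, was separated as narrowly (0.15 ± 0.0675, adjusted p = 0.358), and Smad3, at 11.2, 10.3 and 12.2 RPKM against 9.44, 6.86 and 10.6 RPKM, overlapped (0.31 ± 0.135, adjusted p = 0.366). Groups that did not overlap were found for 2 of the 9 members and for 17.6% of all genes (12.5% higher, as both members were). The median log2 fold change was 0.10 over the 9 members and 0.02 over all genes.

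The control peptide 7aaRAE gave Tgfbr1 values of 84.2, 92.3 and 82.9 RPKM, a range that encloses that of 7aaRGD. Against the same vehicle samples its log2 fold change was 0.29 ± 0.107 (limma, adjusted p = 0.718). Smad3 was at 9.94, 8.35 and 10.03 RPKM and Tgfb1 at 128, 137 and 131 RPKM with 7aaRAE, overlapping vehicle for both genes. Tgfbr2 was at 47.3, 44.8 and 54.0 RPKM with 7aaRGD and 47.8, 44.3 and 50.3 RPKM with 7aaRAE against 48.1, 37.3 and 45.9 RPKM with vehicle, which overlapped (log2 fold changes of 0.16 ± 0.105 and 0.12 ± 0.105, adjusted p = 0.557 and 0.803 in limma). Tgfb2 was at 0.0641 RPKM or less in all 9 samples. With 7aaRAE 0 members and 0 genes (0%) passed in limma, with 1 member and 601 genes at an unadjusted p under 0.05, and 1 member (Tgfbr1, higher) did not overlap, beside 12.6% of genes (6.12% higher).

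Between the peptides, which differ in the RGD motif, 0 members and 0 genes (0%) passed in limma, with 1 member and 521 genes at an unadjusted p under 0.05. Tgfb1 was higher with 7aaRGD in 3 of 3 samples by 0.17 on the log2 scale (95% confidence interval 0.02 to 0.32, adjusted p = 0.857 in limma). The interval of the difference was -0.21 to 0.27 for Tgfbr1, -0.20 to 0.27 for Tgfbr2, -0.08 to 0.53 for Smad3 and -0.09 to 0.28 for Smad7, which leaves room for differences up to those bounds. Tgfb1 and Smad3 did not overlap, 2 of 9, both higher with 7aaRGD, beside 11.4% of genes (7.83% higher).

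The summed microglial markers were 2182 to 2900 RPKM with 7aaRGD, 1877 to 2399 RPKM with 7aaRAE and 1438 to 2107 RPKM with vehicle, with the group means of Tgfbr1 and Smad3 in the same order. In limma 0 of 10 were called in any of these comparisons, and their part in the result was not tested. Of the other pathway genes, 0 of 39 passed in all 3 comparisons. Nrros, Smad2, Smad7, Ski and Skil overlapped between every pair of these groups: Nrros was between 71.6 and 91.4 RPKM in the 9 tumor samples, Smad2 between 5.73 and 6.47, Smad7 between 9.39 and 11.5, Ski between 61.1 and 69.3 and Skil between 22.0 and 28.8 RPKM.

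**Figure D3:**
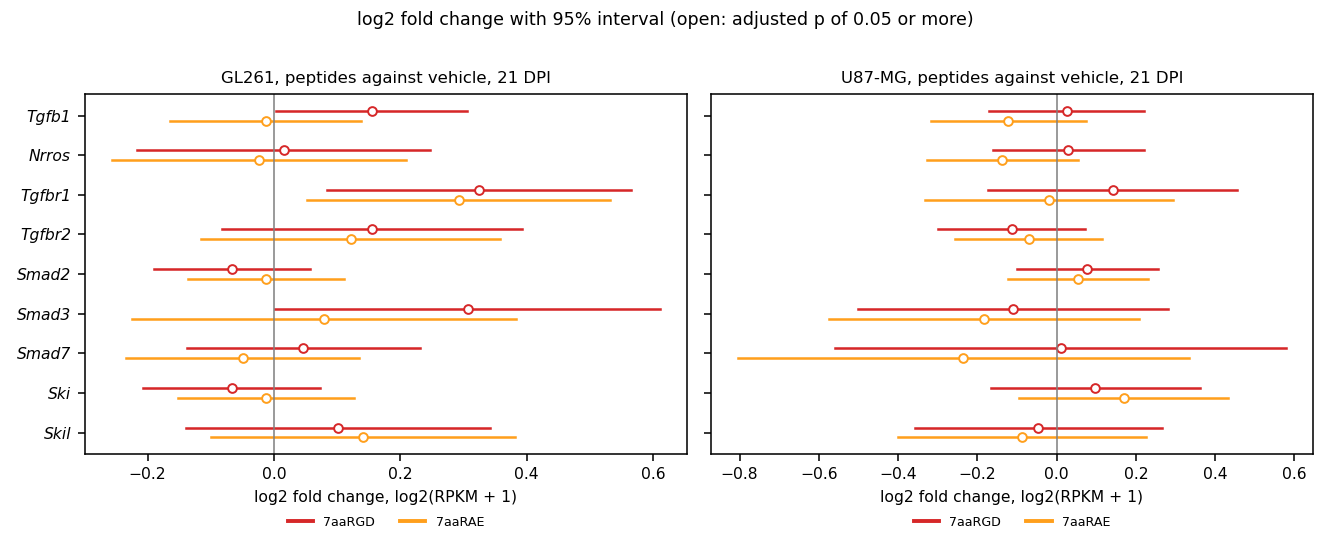
Log2 fold change of the 9 tested genes against vehicle on the log2(RPKM + 1) scale, with 95% confidence intervals, for 7aaRGD and 7aaRAE in GL261 and in U87-MG tumors at 21 DPI; the peptides of a panel share their vehicle samples. All points are open (adjusted p of 0.05 or more), and Tgfbr1 in GL261 stands at 0.32 with 7aaRGD and 0.29 with 7aaRAE.

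At 28 DPI the 3 treatments were compared with the same 4 vehicle samples. Smad3 had the largest log2 fold change of the 9 members in each, and it was called with anti-PD-1 and with the combination. Its values were 7.79, 6.88, 6.45 and 5.04 RPKM with vehicle, 8.65, 7.22, 9.35 and 12.04 RPKM with 7aaRGD, 11.1, 7.77 and 9.79 RPKM with anti-PD-1, and 12.7, 10.4 and 10.9 RPKM with the combination. The combination samples all lay above vehicle, while each of the other treatments had 1 sample within the vehicle range. The log2 fold change was 0.45 ± 0.147 with 7aaRGD (limma, adjusted p = 0.183), 0.49 ± 0.159 with anti-PD-1 (adjusted p = 0.0415, and 0.0728 with no filter, 0.0578 with 1 residual degree of freedom fewer and 0.0559 with a replicate block, each over the threshold) and 0.72 ± 0.159 with the combination (adjusted p = 0.0028).

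Nrros was at 38.4, 32.0, 41.6 and 36.8 RPKM with vehicle, 46.9, 44.2, 33.1 and 43.0 RPKM with 7aaRGD, 56.9, 51.2 and 42.7 RPKM with anti-PD-1, and 56.5, 61.6 and 44.0 RPKM with the combination. Both antibody groups lay above vehicle in every sample, and 7aaRGD had 1 sample within it. The log2 fold change of Nrros was 0.42 ± 0.142 with anti-PD-1 (limma, adjusted p = 0.0476), a call lost with no filter (0.0779), with 1 residual degree of freedom fewer (0.0656) and with a replicate block (0.0505). Nrros rose by 0.52 ± 0.142 with the combination (limma, adjusted p = 0.00996), and its value with 7aaRGD was 0.16 ± 0.132 (adjusted p = 0.6).

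Smad7 was at 7.82, 10.6, 8.98 and 7.62 RPKM with vehicle, 9.67, 8.62, 10.5 and 13.99 RPKM with 7aaRGD, 11.6, 11.3 and 11.9 RPKM with anti-PD-1, and 11.3, 12.6 and 14.4 RPKM with the combination. The antibody groups again lay above every vehicle sample. With the combination it rose by 0.50 ± 0.138 on the log2 scale (limma, adjusted p = 0.0105), and with anti-PD-1 the change of 0.38 ± 0.138 had an adjusted p of 0.0629. Tgfbr2 was at 60.8, 61.0, 48.8 and 52.5 RPKM with vehicle and 68.8, 68.4 and 75.0 RPKM with the combination, which were separate (0.34 ± 0.101, adjusted p = 0.0149 in limma). Its values were 58.2, 59.7 and 71.3 RPKM with anti-PD-1 and 63.1, 58.9, 66.4 and 74.1 RPKM with 7aaRGD, both overlapping vehicle.

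The other members stayed close to vehicle at 28 DPI. Tgfbr1 was between 64.5 and 97.8 RPKM over all 14 samples, with group means from 79.9 to 88.1 RPKM, and Tgfb1 between 77.9 and 103 RPKM. Smad2 lay between 4.98 and 6.06 RPKM, Ski between 75.6 and 104 RPKM, Skil between 16.2 and 24.3 RPKM, and Tgfb2 at 0.102 RPKM or less. Their groups overlapped in each comparison with vehicle.

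In counts, anti-PD-1 called 2 of 9 members, both higher, beside 23.1% of 9740 genes (10.8% higher), and 2 of 9 did not overlap, both higher, beside 32.4% (15.4% higher). The combination called 4 of 9, all higher, beside 43.3% of genes (17.5% higher), and the same 4 did not overlap, beside 48.8% (20.0% higher). Under median-of-ratios scaling the share of calls that were higher went from 40.5% to 50.9% for the combination. With 7aaRGD alone 0 of 9 passed in limma (background 0.647%), with 2 members and 1423 genes at an unadjusted p under 0.05, and 0 of 9 did not overlap (8.02%). The median log2 fold change of the 9 members was 0.14 with 7aaRGD, 0.08 with anti-PD-1 and 0.17 with the combination, beside 0.01, -0.01 and -0.05 over all genes. Called in either direction, the members' share was near the background with either antibody group. Leaving out any 1 library of either group took the anti-PD-1 count to 0 or 1, and leaving out combination replicate 3 took the combination count to 2, with Tgfbr2 at 0.30 (adjusted p = 0.064 in limma) and Smad7 at 0.42 (adjusted p = 0.0546).

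The combination was also compared with each single treatment. Against anti-PD-1, 0 of 9 members passed in limma (background 0.0411%), with 0 members and 1461 genes at an unadjusted p under 0.05. The largest difference was Smad3 at 0.23 ± 0.170 (95% confidence interval -0.14 to 0.6). Its samples overlapped between these groups, and the interval leaves room for differences up to its bounds. Tgfbr2 (0.17), Smad7 (0.12), Skil (0.10), Nrros (0.10), Smad2 (0.02), Ski (-0.01), Tgfbr1 (-0.04) and Tgfb1 (-0.09) followed. Against 7aaRGD, 0 of 9 passed beside 36.6% of genes, with 1 member and 4509 genes at an unadjusted p under 0.05. That member was Nrros at 0.36 ± 0.142 (limma, adjusted p = 0.063), which was called at 0.43 (adjusted p = 0.018) under median-of-ratios scaling and at 0.50 (adjusted p = 0.0245) without combination replicate 3. Without 7aaRGD replicate 4 the count was 1, for Smad7. Samples did not overlap for 0 of 9 members against either single treatment, beside 21.5% of genes against anti-PD-1 and 40.4% against 7aaRGD. The share of all calls that were higher went from 35.6% to 51.0% under that scaling.

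Markers moved at 28 DPI too, and their part in these results was not tested. The 10 monocyte and macrophage markers summed to 3019 to 3768 RPKM with vehicle, 2797 to 4198 RPKM with 7aaRGD, 5030 to 7043 RPKM with anti-PD-1 and 6082 to 8137 RPKM with the combination, where 6 of 10 rose and 1 fell. The microglial markers summed to 1660 to 2364 RPKM with vehicle, 1903 to 3442 RPKM with 7aaRGD, 1904 to 2757 RPKM with anti-PD-1 and 2549 to 2725 RPKM with the combination, where 6 of 10 rose. Genes of NK and T cells summed to 2.33 to 8.65 RPKM with vehicle, 1.61 to 8.25 RPKM with 7aaRGD, 38.7, 48.3 and 2.43 RPKM with anti-PD-1, and 19.6, 63.7 and 60.8 RPKM with the combination. Of 4 tested, 3 rose with the combination and 0 with anti-PD-1 (limma), although 2 of the 3 anti-PD-1 samples were within the combination's range. With anti-PD-1 alone 6 of 10 monocyte and macrophage markers and 2 of 10 microglial markers rose, and with 7aaRGD 0 and 1.

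Of 38 other pathway genes tested at 28 DPI, 4 rose and 3 fell with anti-PD-1, and 9 rose and 6 fell with the combination. Beside 23.1% and 43.3% of all genes called, neither share is above the background, so the genes below are given as values and not as a result about the pathway. The target gene Tgm2 rose by 1.71 and 1.67 on the log2 scale, and the coreceptor Eng by 0.74 and 1.23. Pmepa1 fell by 0.46 and 0.82 and Smurf2, a ubiquitin ligase that acts with SMAD7 on the receptor, by 0.28 and 0.45. The phosphatase Ppm1a fell by 0.31 and 0.37, the deubiquitinase Usp15 rose by 0.31 and 0.29 and the integrin subunit Itgb1 rose by 0.29 and 0.36. With the combination, Acvr1 rose by 0.53, Acvr1b rose by 0.30, Acvrl1 rose by 0.29, Cdkn1a rose by 0.89, Id1 fell by 0.55 and the protease Furin fell by 0.47. Against 7aaRGD 7 rose and 8 fell of the 38, close to the 36.6% of all genes called. Tgm2, Cdkn1a, Eng, Tgif1, Acvr1, Acvr1b and Itgb1 had log2 fold changes of 1.48, 1.32, 0.96, 0.43, 0.35, 0.31 and 0.23 there, and Id2, Smurf2, Id1, Pmepa1, Ppm1a and Furin of -0.69, -0.63, -0.59, -0.56, -0.38 and -0.33. For the combination against anti-PD-1 and for 7aaRGD against vehicle 0 of 38 passed. Itgav was between 10.02 and 12.1 RPKM in the group means. Tgfbi was not called in any of these, at 1318 ± 204 RPKM with vehicle and 1139 ± 184 RPKM with the combination, and Smad4 was between 12.8 and 16.6 RPKM in the group means.

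In U87-MG tumors 0 of 9 members passed in any of the 3 comparisons in limma, with 0 members at an unadjusted p under 0.05 in each. The background was 0% for 7aaRGD against vehicle (365 genes at an unadjusted p under 0.05), 0.0103% for 7aaRAE against vehicle (746 genes) and 0% between the peptides (327 genes). Tgfbr1 was at 153, 169.6 and 149 RPKM with vehicle, 179, 146 and 199 RPKM with 7aaRGD and 150.0, 180.3 and 137 RPKM with 7aaRAE. The 3 groups overlapped, with a log2 fold change of 0.14 ± 0.139 for 7aaRGD (95% confidence interval -0.17 to 0.45).

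Smad3 was at 32.4, 37.8 and 33.9 RPKM with vehicle, 39.5, 23.6 and 35.0 RPKM with 7aaRGD and 34.1, 27.1 and 30.3 RPKM with 7aaRAE, and Smad7 at 21.7, 24.7 and 19.5, at 26.7, 13.8 and 28.7, and at 21.1, 14.7 and 20.2 RPKM. The same 7aaRGD sample was the lowest for both genes and widened the group. It also had the lowest microglial marker sum (7215 RPKM against 12244 and 9956 in the other samples of the group) and the highest sum of monocyte and macrophage markers (3918 RPKM against 1487 and 2726). The 7aaRAE sample lowest for Smad3 and Smad7 likewise had the lowest microglial sum of its group (8001 RPKM against 10297 and 9318). Its monocyte and macrophage sum was the highest of the group (2397 RPKM against 1337 and 1617). Tgfbr1 went both ways, as the 7aaRGD sample was the lowest of its group (146 RPKM) and the 7aaRAE sample the highest (180.3 RPKM). That 7aaRAE sample was also the highest of its group for Ski (133 RPKM). The part of the marker sums in these levels was not tested. Tgfbr2 was at 130.4, 121 and 123 RPKM with vehicle, 123, 115 and 108 RPKM with 7aaRGD and 113, 120.3 and 123 RPKM with 7aaRAE, overlapping throughout. Ski lay between 96.2 and 133 RPKM and Skil between 17.9 and 27.0 RPKM over the 9 samples. Their log2 fold changes against vehicle were 0.10 ± 0.117 and -0.05 ± 0.138 with 7aaRGD and 0.17 ± 0.117 and -0.09 ± 0.138 with 7aaRAE. Nrros was at 56.6, 66.4 and 54.8 RPKM with vehicle, 61.1, 59.7 and 60.1 RPKM with 7aaRGD, and 53.9, 53.4 and 53.4 RPKM with 7aaRAE. The 7aaRAE samples lay under both other groups by a small amount (log2 fold change 7aaRGD minus 7aaRAE 0.17 ± 0.0844, adjusted p = 1 in limma). Groups did not overlap for 1 member (Smad2) with 7aaRGD, beside 10.8% of genes (4.43% higher, as Smad2 was), for 2 (Tgfb1 and Nrros, both lower) with 7aaRAE, beside 16.5% (9.45% lower), and for 1 (Nrros) between the peptides, beside 6.46% (3.45% higher with 7aaRGD, as Nrros was).

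Tgfb2 was highest in this model, at 0.130 to 0.174 RPKM with vehicle, 0.190 to 0.907 RPKM with 7aaRGD and 0.152 to 0.714 RPKM with 7aaRAE, still under the level needed for a test. The microglial marker sum was between 7215 and 12244 RPKM and that of monocytes and macrophages between 1337 and 3918 RPKM over the 9 samples. Of 39 other pathway genes, 0 passed in each comparison. Tgfbi was at 146 ± 27.4 RPKM with vehicle, and the group means were 15.5 to 16.9 RPKM for Itgav and 15.9 to 19.0 RPKM for Smad4. Naive nude mice were not analysed here, so no tumor effect could be given for this model.

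Ratios of members within a sample do not depend on scaling. They were chosen after the values were seen and carry no test. The ratio of Smad3 to Smad2 was 5.03 to 5.77 in naive samples and 1.17 to 1.71 in vehicle-treated GL261 tumors at 21 DPI, and it was 0.871 to 1.497 with vehicle and 1.75 to 2.13 with the combination at 28 DPI. In U87-MG tumors with vehicle it was 5.08 to 5.73, within the naive range. Tgfbr1 to Tgfb1 was 2.45 ± 0.0763 in naive brain, 0.530 ± 0.0469 in GL261 tumors at 21 DPI, 0.885 ± 0.146 at 28 DPI and 1.53 ± 0.121 in U87-MG tumors, the last 3 with vehicle, so the receptor exceeded its ligand per length in naive and U87-MG samples and not in GL261 tumors at 21 DPI.

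**Figure D4:**
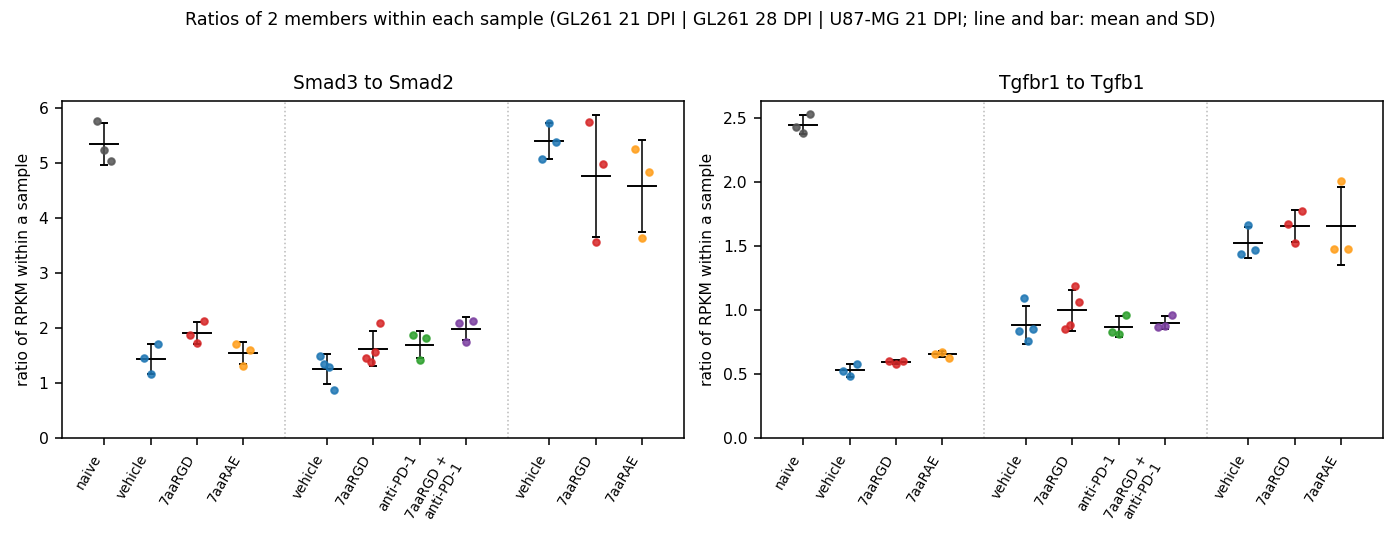
Ratio of Smad3 to Smad2 and of Tgfbr1 to Tgfb1 in each sample (RPKM divided by RPKM, no unit) by group. Naive and U87-MG samples lie at or above 3.56 for Smad3 to Smad2, and all GL261 tumor samples lie at or below 2.13.

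Across the 11 groups, the genes whose centred group means lay closest to those of Tgfb1 were Noc2l, Lta4h and B3gat3, with root mean square differences of 0.042, 0.043 and 0.043 on the log2 scale, among 5403 genes. For Tgfbr1 they were Arhgap39 (0.072), Fmnl3 (0.074) and Rnf167 (0.080), and for Smad7 they were Galnt10 (0.056), Jmjd8 (0.060) and Usp21 (0.064). Only the likeness of the group means was measured.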

How the data were processed

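CD11b+ cells were profiled by stranded poly-A RNA-seq. Per the study's methods and the submitters' notes, Trimmomatic, STAR (genome build mm10) and HTSeq 0.11.1, counting by strand, were run by the authors. Every deposited value was read as an RPKM to which 2 had been added. The 2 was subtracted, and values below 0 were set to 0 for the tests. Values below 0 made up 3.13% to 8.78% of each sample over the 3 experiments, which an RPKM cannot be. The deposited values had therefore been adjusted further, in a way that is not known, and values near 0, such as those of Tgfb2, are uncertain. Depth is unknown. Coding genes averaging 1 RPKM or more entered limma 3.58.1 (R 4.3.3) as log2(RPKM + 1) (trend, two-sided, Benjamini-Hochberg over all genes, threshold 0.05), so fold changes of low genes are understated. The tumor-bearing groups of a table shared 1 estimate of the spread, and naive was fitted with vehicle alone. The study's test needs counts and was not run. The fit was also run on simulated data with independent noise and planted changes of 1 on the log2 scale. That run does not cover smaller changes or the dimension missing from the GL261 values.

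The 10 members and all lists were chosen with earlier results of these data known. All members are named, other pathway genes as at most 4 called genes per list by size plus 7 fixed genes, of which 1 is not reported here. Alternatives were the pseudocount (0.1, 5), no filter or a mean of 5 RPKM, median-of-ratios scaling, 1 residual degree of freedom fewer (replicate differences in both GL261 tables lack 1 dimension), only the 2 groups compared, a replicate block and leaving out each sample. Of 40 samples, 5 without a column were not analysed here. Nothing says that pairs of samples share an animal, so numbers were not taken to pair them. Deviations of same-numbered samples correlated over 0.1 in 1 of 9 pairs at 21 DPI and 3 of 19 at 28 DPI. The lowest correlation was -0.77, for vehicle and 7aaRGD replicate 1 at 21 DPI. A term removed from the values may have taken a positive correlation with it, so this count cannot decide whether numbers pair samples.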

Additional observations from a re-analysis of the deposited data

How the results depend on the processing

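The anti-PD-1 against vehicle count of 2 members went to 0 with no filter on low values, to 0 with 1 residual degree of freedom fewer and to 0 with a replicate block, and ranged from 0 to 1 when single samples were left out. The adjusted p of Smad3 was then 0.0728, 0.0578 and 0.0559, and that of Nrros 0.0779, 0.0656 and 0.0505 (limma). Smad7 was called there with only the 2 groups compared (adjusted p = 0.0382) and without vehicle replicate 2 (adjusted p = 0.0346). The combination against vehicle count of 4 ranged from 2 to 4 with samples left out, with Nrros lost without combination replicate 2 (adjusted p = 0.052). The combination against 7aaRGD count of 0 went to 1 with median-of-ratios scaling and ranged from 0 to 1 with samples left out. In vehicle against naive, 7 members were called with median-of-ratios scaling, and Nrros was lost with no filter (adjusted p = 0.0735) and with 1 residual degree of freedom fewer (adjusted p = 0.0813). No member with an unadjusted p under 0.05 changed sign under any alternative run. Among the 84 member results with a larger p, 75 of 1182 refits had the other sign and 1 was called, and Tgfb2, tested only without a filter, was not called. The replicate block changed no other member call. No paired analysis was possible for U87-MG because its columns carry no replicate numbers.

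Counts over all genes moved by more than 1.5 times as follows. Vehicle against naive went from 8062 to 5289 at a mean of 5 RPKM. For 7aaRGD against vehicle at 21 DPI, 14 became 0 with a pseudocount of 0.1, a mean of 5 RPKM, median-of-ratios scaling, 1 residual degree of freedom fewer or the replicate block, 1 with only the 2 groups, 45 with no filter, and 0 to 125 with samples left out. At 28 DPI, 63 became 39 with no filter, 18 with scaling, 0 with 1 residual degree of freedom fewer, only the 2 groups or the block, and 0 to 1 with samples left out. For the peptides at 21 DPI, 0 became 7 with no filter and 6 with only the 2 groups. For the combination against anti-PD-1, 4 became 14 (pseudocount 5), 20 (no filter), 13 (mean of 5 RPKM), 1 (1 residual degree of freedom fewer), 0 (only the 2 groups, block) and 0 to 26 with samples left out. Anti-PD-1 against vehicle went from 2246 to 1356 without anti-PD-1 replicate 2, and U87-MG 7aaRAE against vehicle from 1 to 32 with only the 2 groups and to 0 at a mean of 5 RPKM. The other peptide comparisons reached at most 3 with samples left out. Where these counts changed, the cause was not tested. Unknown depth limits what can be said of Tgfb2.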
